A study of Homo sapiens with 12 samples.

Results

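ESRRG was overexpressed in MKN45 cells, an established human gastric cancer cell line, and the transcripts of 3 ESRRG OE samples were compared with those of 3 control samples. These 6 arrays were taken by their titles from a series of 12, whose other 6 arrays hold the same contrast in AGS cells, another gastric cancer line. ESRRG OE cells received a lentivirus with the full-length ESRRG coding DNA under the EF1 promoter and with puromycin resistance, control cells received the control lentivirus, and all cells were collected after 3 days. Each sample was read on 1 Illumina BeadChip with 47323 probes, and levels are given as the deposited quantile-normalized log2 intensity, on which a difference of 1 is a doubling. None of the sources says whether these triplicates were grown separately. The p-values then cover only the spread among the arrays, part or all of which may be technical.

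ESRRG encodes an orphan nuclear receptor, one of the estrogen-related receptors (ERRs), which resemble the estrogen receptors but are active without a known natural hormone. ERRs bind as monomers or dimers to a short DNA element, AAGGTCA, and recruit coactivators such as PGC-1. They are best known for switching on the genes of mitochondrial energy metabolism, and in the stomach ESRRG is known for its part in the acid-secreting parietal cell.

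The 3 probes for ESRRG did not show the introduced gene. The brightest of them read 6.85, 7.03 and 6.93 in ESRRG OE samples and 6.82, 6.92 and 7.0 in control samples, was detected on 1 ESRRG OE and 1 control array, and stayed at the level of the background. The other ESRRG probes were detected on 0 of the 6 arrays. Probe sequences were not used here, so whether any of them lies within the introduced DNA is not known and they do not check the labels. ESRRA, the broadly expressed member of the family, read 9.68, 9.63 and 9.64 in ESRRG OE samples and 9.10, 9.08 and 9.22 in control samples, so the groups did not overlap (log2 fold change 0.51, SE 0.08, adjusted p = 0.000134 in limma). ESRRB was not detected on any of the 6 arrays. Among 8 tested genes of the ERR family and its coregulators 4 rose and 1 fell. These shares were 50% and 12.5%, against 20.1% and 20.9% over all genes tested. The count is a description, since 1 of the rises, PPARGC1A, passed the detection filter through the ESRRG OE arrays. PPARGC1A, which encodes PGC-1 alpha, was detected on 3 of 3 ESRRG OE arrays and 0 of 3 control arrays (7.37, 7.19 and 7.21 against 6.86, 6.79 and 6.91) and was at least 1.21-fold higher in ESRRG OE. The corepressor gene NRIP1 rose by 0.49, and the related coactivator gene PPRC1 fell by 0.57, on the log2 scale.

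Between 19839 and 20397 probes were detected on the ESRRG OE arrays and between 19465 and 20247 on the control arrays (detection p-value under 0.05). Before normalization the mean probe intensity was 465, 491 and 470 on the ESRRG OE arrays and 354, 525 and 319 on the control arrays, so 2 control arrays were dimmer and 1 was brighter than all ESRRG OE arrays. After normalization the groups separated along the first principal component, which held 80.4% of the variance. All 11 markers of gastric epithelial lines were detected on every array. Of these 4 rose and 3, KRT8, KRT19 and MUC1, fell. Their summed linear levels were lower in ESRRG OE (34144 to 36712) than in control samples (37386 to 38502). The 12 blood cell markers on the array were leukocyte genes and the hemoglobin genes HBB and HBA1. On each ESRRG OE array 5 were detected, and on the control arrays 3 to 5. Their summed linear levels were 3392 to 3791 in ESRRG OE and 3106 to 3500 in control samples. The sums include undetected members, and the brightest member, LYZ, hardly differed (mean 10.95 in ESRRG OE and 10.93 in control samples). PTPRC, CD3D, CD3E, CD14 and ITGAM were undetected on all 6, but CSF1R rose by 1.23 and CD2, detected on 1 control array, by 0.57. HBB went the other way without passing, detected on 0 ESRRG OE and 3 control arrays (mean 6.87 and 7.03). The part of these markers in the results was not tested. Of 12 fibroblast and endothelial markers 0 to 1 were detected on the ESRRG OE arrays and 1 to 2 on the control arrays (summed levels of 1306 to 1378 and 1307 to 1380).

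In limma, with adjustment over all 11254 genes tested, 4611 genes (41.0%) changed at an adjusted p under 0.05. They comprised 2264 genes that rose (20.1%) and 2347 that fell (20.9%), and 6643 did not pass. The rises were larger than the falls: 184 genes rose and 41 fell by more than 2-fold, and 34 rose and 1 fell by more than 4-fold. The groups did not overlap for 5635 genes (50.1%). The median SD between replicates was 0.08 in ESRRG OE and 0.10 in control samples.

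The balance of small rises and falls depended on the scaling of the arrays. Of the changed genes 49.1% rose after the deposited quantile normalization, but 88.7% rose (3457 genes, against 439 that fell) after scaling every array to one median instead. With that scaling the median change of all genes was 0.16, against -0.01 with quantile normalization. Counts of gene list members that rose or fell are therefore given with one median too, in brackets, where either moved by over 1.5 times and by more than 1 gene. Each count is to be read beside the shares over all genes tested, 20.1% that rose and 20.9% that fell. The median over all probes was 6.89 on every MKN45 array, below the lowest detected signal (6.96 to 6.99). Scaling to one median thus aligned the arrays at undetected signal. It did not set brighter signal to a common range, and mean intensity differed between the arrays before normalization. The counts with one median show how far the results move with the scaling. Which scaling lies closer to the true balance was not tested.

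**Figure D1:**
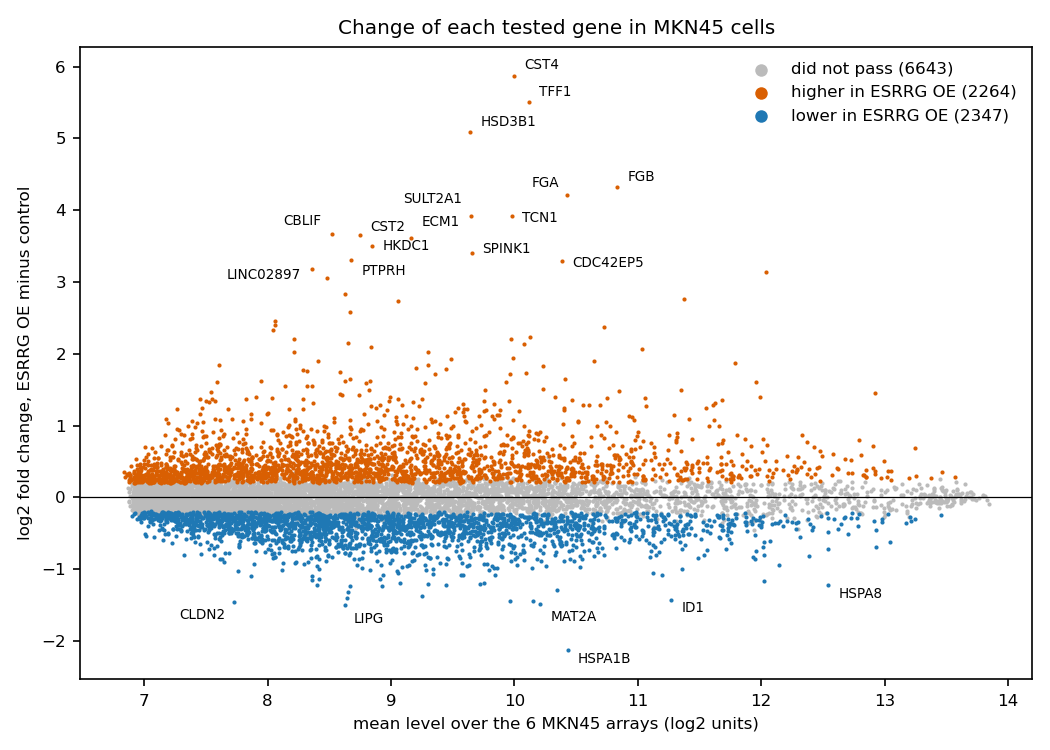
Log2 fold change of the 11254 tested genes (vertical axis, ESRRG OE minus control) against their mean level over the 6 MKN45 arrays (horizontal axis, log2 units). Each point is a gene, coloured by the limma result, and the 34 rises of more than 4-fold reach 5.87 while the largest fall, HSPA1B, is at -2.13.

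Among the largest rises were several genes for secreted proteins of saliva, gastric mucus and blood plasma. CST4, which encodes the salivary cysteine protease inhibitor cystatin S, read 13.04, 12.88 and 12.88 in ESRRG OE samples and 7.047, 7.127 and 7.002 in control samples. Control values near 7 lie at the detection limit, since the lowest detected signal was 6.96 to 6.98 on the ESRRG OE arrays and 6.96 to 6.99 on the control arrays. CST4 was thus abundant in ESRRG OE cells and barely above background in control cells (58.6-fold, or 5.87 on the log2 scale with an SE of 0.08, at an adjusted p of 3.75e-15), and its other tested probe gave 5.45.

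TFF1, a trefoil peptide of the gastric surface, read 12.86, 12.94 and 12.80 in ESRRG OE samples and 7.17, 7.44 and 7.49 in control samples (45.3-fold). The steroid enzyme gene HSD3B1, whose product makes progesterone and androgen precursors, read 12.32, 12.04 and 12.20 against 7.19, 7.06 and 7.04 in control samples (34.1-fold). SULT2A1, which adds sulfate to steroids and bile acids, read 11.68, 11.40 and 11.74 against 7.74, 7.68 and 7.63 in control samples (15.2-fold). Over the list of steroid and xenobiotic enzymes, however, 5 of 20 tested genes rose and 5 fell (9 and 1 with one median), with a median of 0.05. Each share was 25%, near the 20.1% that rose and 20.9% that fell over all genes tested. For TFF1, HSD3B1 and SULT2A1 the gap between the groups was many times the spread within either group.

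All 3 chains of fibrinogen, the clotting protein that the liver secretes, rose. FGB read 13.06, 12.98 and 12.94 in ESRRG OE samples and 8.69, 8.78 and 8.54 in control samples (20.0-fold), and FGA read 12.70, 12.46 and 12.45 against 8.39, 8.16 and 8.43 in control samples (18.5-fold). FGG read 13.57, 13.65 and 13.61 in ESRRG OE samples and was already well expressed in control samples at 10.45, 10.46 and 10.51 (8.81-fold). A dimmer FGG probe gave a log2 fold change of 4.15, against 3.14 for the brightest one, so the fold depended on the probe, and FGA probes gave 0.85 to 4.55. Of the 20 tested liver plasma protein genes 8 rose and 4 fell (7 and 2 with one median). These shares were 40% and 20%, against 20.1% and 20.9% over all genes tested. VTN, which encodes the adhesion protein vitronectin, fell by 1.09, and the median of the list was 0.06. Besides the fibrinogen genes and SPINK1, no member of this list rose by more than 1.07.

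Among the secreted vitamin B12 carriers, TCN1 and CBLIF rose. TCN1, the haptocorrin of saliva and gastric juice, read 11.969, 11.998 and 11.840 in ESRRG OE samples and 7.87, 8.26 and 7.92 in control samples (15.1-fold). CBLIF, the gastric intrinsic factor that human parietal cells secrete, read 10.47, 10.32 and 10.28 in ESRRG OE samples, was undetected on all control arrays (6.68, 6.49 and 6.88), and was at least 10.4-fold higher in ESRRG OE. Of 12 tested genes of cobalamin handling 7 rose and 1 fell (58.3% and 8.33%, against 20.1% and 20.9% over all genes tested). The count is a description, since CBLIF passed the detection filter through the ESRRG OE arrays. Among the other rises was PCCA (0.63), a subunit of the propionyl-CoA carboxylase that feeds a B12-dependent mitochondrial step.

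The remaining genes among the 15 largest rises had varied roles. ECM1, a secreted matrix protein, rose 12.2-fold. HKDC1, a hexokinase-like enzyme, rose 11.3-fold, SPINK1, a trypsin inhibitor of pancreatic juice, 10.6-fold, PTPRH, a receptor tyrosine phosphatase, 9.89-fold and CDC42EP5, an effector of the GTPase CDC42, 9.81-fold. CST2, another salivary cystatin, and LINC02897, a long noncoding RNA, were undetected on the control arrays and at least 12.1-fold and 7.85-fold higher in ESRRG OE.

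**Figure D2:**
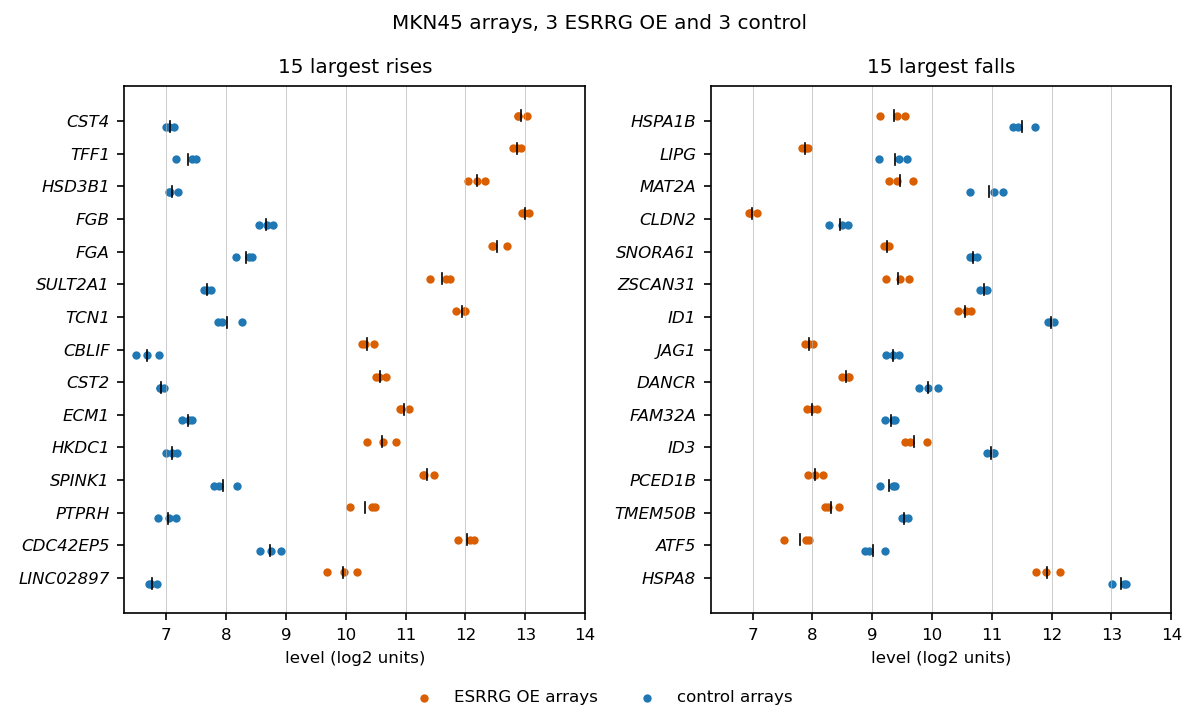
Levels (log2 units) on each array for the 15 genes that rose most (left panel) and the 15 that fell most (right panel), with ESRRG OE arrays in orange above control arrays in blue and the mean of 3 as a black line. CST4 lies between 12.88 and 13.04 in ESRRG OE and between 7.002 and 7.127 in control samples. Genes were chosen for the panels among those whose groups do not overlap.

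The ERR core element AAGGTCA was searched on both strands in the RefSeq promoters (GRCh38.p14, 250 bases before to 50 after the start site) of the tested genes that could be matched by symbol. It was present in 9 of 149 promoters of genes that rose by more than 2-fold (6.04%) and in 1 of 29 of those that fell by more than 2-fold (3.45%). Over genes of any size of change it was in 57 of 1855 that rose (3.07%), 42 of 1881 that fell (2.23%) and 124 of 5281 that did not pass (2.35%). The element was in 223 of 9017 of all tested genes (2.47%) and in 1083 of 27305 of all RefSeq promoters (3.97%). The longer form TNAAGGTCA was in 1 of the 149 (0.671%), in 5 of the 1855 that rose (0.27%), in 11 of the 1881 that fell (0.585%) and in 49 of the 9017 (0.543%). CST4, TFF1, CST2 and CDC42EP5 had no entry in the promoter table. The stretches around the element are shown for the 3 genes of largest rise and the 3 of largest fall that hold it, since the receptor that was introduced binds these letters. The element is in capitals and appears as TGACCTT where it lies on the opposite strand of the gene. A match describes the sequence and is not a measured binding site.
HSD3B1 promoter, chr1:119507040-119507126, plus strand: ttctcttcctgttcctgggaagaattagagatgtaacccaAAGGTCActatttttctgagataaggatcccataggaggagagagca
ECM1 promoter, chr1:150507882-150507968, plus strand: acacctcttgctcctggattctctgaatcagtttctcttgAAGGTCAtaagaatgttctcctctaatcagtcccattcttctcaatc
ALOX5AP promoter, chr13:30713235-30713281, plus strand: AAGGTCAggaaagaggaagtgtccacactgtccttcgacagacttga
VTN promoter, chr17:28370359-28370445, minus strand: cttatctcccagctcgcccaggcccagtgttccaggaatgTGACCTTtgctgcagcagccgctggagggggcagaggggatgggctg
NOP16 promoter, chr5:176388719-176388805, minus strand: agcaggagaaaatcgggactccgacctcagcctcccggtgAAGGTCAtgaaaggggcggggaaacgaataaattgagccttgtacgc
PRR3 promoter, chr6:30556657-30556743, plus strand: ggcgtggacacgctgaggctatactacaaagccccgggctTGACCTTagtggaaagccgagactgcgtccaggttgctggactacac

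ECM1 and NOP16 carry the longer form, with the T 2 bases before the capitals. These genes changed in opposite directions: ECM1 read 11.06, 10.93 and 10.91 in ESRRG OE samples and 7.27, 7.42 and 7.39 in control samples, while NOP16, a nucleolar protein of ribosome assembly, read 8.77, 8.54 and 8.72 against 9.55, 9.68 and 9.62 in control samples. ALOX5AP, which activates leukotriene synthesis, rose by 3.05, and its element stands at the very start of the window searched.

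Several of the largest rises were in genes that stand next to each other. Of 6264 pairs of neighbouring protein-coding genes (in RefSeq order, used for order only) in which both genes were tested, 13 pairs rose together by more than 2-fold and 0 fell together by more than 2-fold. These pairs were picked out after their values were seen, and the number expected was not computed. Only 41 genes fell by more than 2-fold, against 184 that rose, so falling pairs could hardly arise. The rising pairs include the fibrinogen genes FGB, FGA and FGG on chromosome 4, TCN1 and CBLIF on chromosome 11, HKDC1 and HK1 on chromosome 10, and KLK11 and KLK12 on chromosome 19. CBLIF and KLK12 were undetected on all control arrays, so their direction was set by the detection filter.

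On chromosome 20 CST3, CST4, CST1, CST2 and CST5 follow each other, and all 5 rose, by 0.36 (CST3, the cystatin C of most tissues) to 5.87 (CST4). CST1 read 13.68, 13.66 and 13.60 in ESRRG OE samples and was already high in control samples at 12.11, 12.24 and 12.24. CST5, or cystatin D, read 9.12, 9.24 and 9.25 in ESRRG OE samples and was undetected in control samples (at least 4.69-fold higher in ESRRG OE). Like CST5, CST2 was undetected on all control arrays, so the direction of both was set by the detection filter. CST1, CST2 and CST4 are near-identical genes, and their probes may not fully separate them. Among 18 tested cystatins and other protease inhibitors 10 rose and 5 fell (11 and 2 with one median). PI3, or elafin, an inhibitor of elastase, fell by 1.15.

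In all, 199 genes were detected on 3 of 3 ESRRG OE and 0 of 3 control arrays, 147 of which rose, and 44 genes showed the reverse, 29 of which fell. These genes were tested through the group that detected them, so their direction was set by the detection filter and the counts are a description. Besides the genes above, the rises included DEPTOR, an inhibitor of mTOR (9.19, 9.57 and 9.12 against 6.82, 6.88 and 6.79 in control samples, at least 4.99-fold) and ACSS1, which makes acetyl-CoA from acetate in mitochondria (9.22, 9.10 and 9.47 against 6.96, 6.81 and 6.81, at least 4.89-fold). KLK12, a secreted serine protease, was at least 2.94-fold higher in ESRRG OE, and CLDN18, the tight junction protein of the stomach lining, read 8.41, 8.38 and 8.38 against 6.68, 6.91 and 6.75 in control samples (at least 2.67-fold). The reverse was much smaller. VGLL1, a partner of TEAD transcription factors, read 6.92, 6.90 and 6.92 in ESRRG OE and 7.69, 7.75 and 7.74 in control samples (at least 1.69-fold lower), and SYNPR, CDKN1C, PAGE4, SPINK4, GPX5, HSPA1A and TMEM273 were at least 1.23-fold to 1.49-fold lower. None of these 8 genes exceeded 7.75 in a control sample.

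Of 18 listed genes of the parietal and chief cells of the stomach 7 were tested, and 6 of them rose. This count is not read as a result about the list, since CBLIF, ATP4B, KCNQ1 and ATP4A were undetected on all control arrays and SLC9A4 was detected on 1, so they passed the detection filter through the ESRRG OE arrays. The members that rose beside CBLIF were SLC9A4, a sodium-proton exchanger (8.45, 8.15 and 8.24 against 7.002, 6.83 and 6.61 in control samples), ATP4B, the beta subunit of the gastric proton pump (7.70, 7.76 and 7.70 against 6.57, 6.66 and 6.66, at least 1.68-fold higher), CA2, a carbonic anhydrase (0.58), KCNQ1, a potassium channel (at least 1.22-fold higher), and ATP4A, the catalytic pump subunit (7.03, 7.06 and 7.10 against 6.73, 6.83 and 6.81, at least 1.06-fold higher). The pump and exchanger levels stayed low in ESRRG OE cells.

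The genes of the gastric surface and mucous cells moved both ways, with 6 rises and 5 falls among 16 tested (6 and 1 with one median). TFF1, CLDN18 and GCNT3, which branches mucin sugars (12.24, 12.19 and 11.86 against 10.57, 10.70 and 10.55 in control samples), rose. MUC1, a transmembrane mucin, read 9.86, 10.07 and 10.14 in ESRRG OE samples and 10.80, 10.75 and 11.09 in control samples and fell, and its 2 other tested probes fell too, by 0.65 and 0.82.

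Genes of mitochondrial energy metabolism rose far more often than they fell in the TCA cycle and in fatty acid oxidation. Of 28 tested genes of the TCA cycle and pyruvate metabolism 19 rose and 0 fell, with a median of 0.35. PCK2, which makes phosphoenolpyruvate in mitochondria, read 10.30, 10.46 and 9.90 in ESRRG OE samples and 8.56, 8.45 and 8.48 in control samples. IDH2, the mitochondrial NADP-dependent isocitrate dehydrogenase, read 9.66, 9.53 and 9.61 against 7.91, 7.95 and 8.15 in control samples, and its cytosolic counterpart IDH1 rose by 0.87. For both isocitrate dehydrogenases the lowest ESRRG OE value lay above the highest control value, as in 25.2% of all genes tested. Of 24 genes of fatty acid oxidation 14 rose and 1 fell (median 0.32), led by the enoyl-CoA isomerase ECI2 (0.72) and the very long chain acyl-CoA dehydrogenase ACADVL (0.64).

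The 66 tested genes of the respiratory chain and ATP synthase held 20 rises and 6 falls (30 and 1 with one median), and the median was 0.10. COX5B, a subunit of cytochrome c oxidase, read 12.82, 12.87 and 12.64 in ESRRG OE samples and 12.09, 12.32 and 12.21 in control samples. CYCS, or cytochrome c itself, read 7.32, 7.15 and 7.34 against 7.83, 7.78 and 7.67 in control samples and fell. The share that rose (30.3%) was above, and the share that fell (9.09%) below, the shares over all genes. Mitochondrial ribosomal proteins rose in 11 and fell in 15 of 64, but rose in 15 and fell in 1 with one median. Their shares (17.2% rose and 23.4% fell) were near those over all genes (20.1% and 20.9%). Single arrays moved this list as well, since 7 members rose without ESRRG OE replicate 1, and 10 fell without ESRRG OE replicate 2.

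Genes of the hypoxia response rose in 16 of 23 tested and fell in 0 (median 0.60). ADM, a vasodilating peptide, read 9.70, 10.19 and 10.25 in ESRRG OE samples and 7.35, 7.26 and 7.02 in control samples. NDRG1, a stress response gene, read 9.41, 10.48 and 10.40 against 8.42, 8.19 and 8.30 in control samples, and ANKRD37 read 8.47, 9.90 and 9.69 against 7.34, 7.57 and 7.46. In all 3 genes ESRRG OE replicate 1 was the lowest of its group, by about 1 unit in NDRG1 and more in ANKRD37, yet lay above every control. HIF1A, the oxygen-regulated transcription factor, rose by 1.30.

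In glycolysis and glucose transport 9 of 22 genes rose and 2 fell (11 and 0 with one median), and the median of the list was 0.11. The hexokinases, which trap glucose in the cell, stood out. HK1 read 11.25, 11.25 and 11.22 in ESRRG OE samples and 9.01, 8.95 and 9.06 in control samples, and HK2 read 11.04, 11.32 and 11.07 against 9.22, 8.79 and 9.01. The other tested HK2 probe gave 1.15, against 2.14 for the brightest. SLC2A1, the glucose transporter GLUT1, rose by 0.73. TXNIP, which restrains glucose uptake, read 12.82, 12.71 and 12.54 in ESRRG OE samples and 11.39, 11.16 and 11.34 in control samples (2.63-fold).

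**Figure D3:**
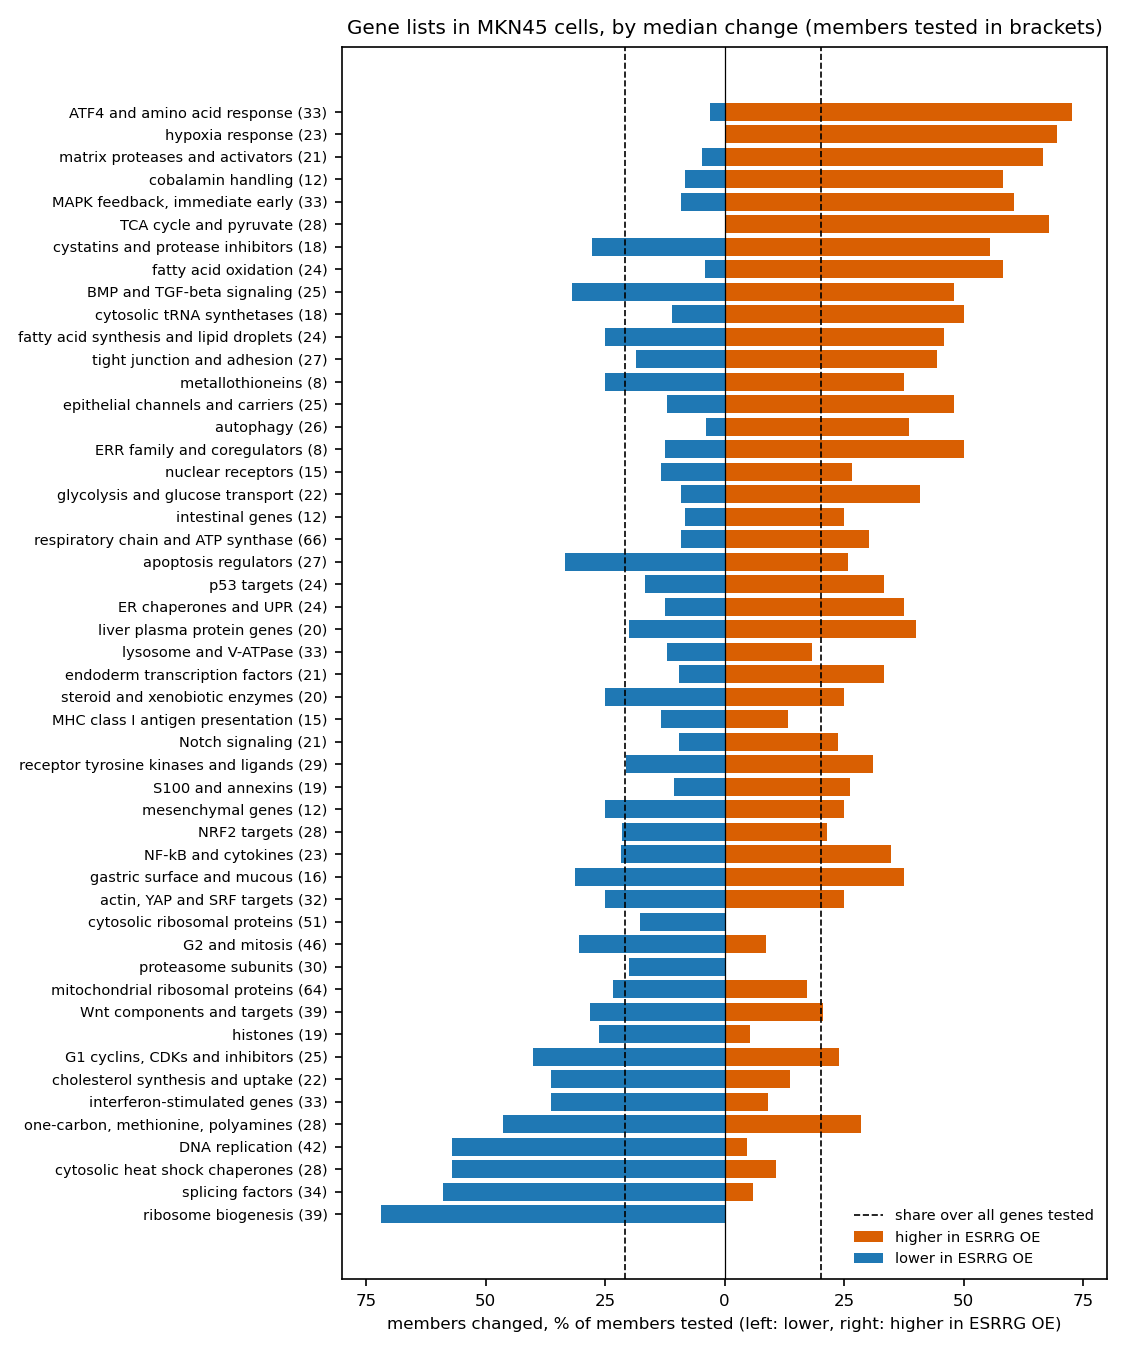
Share of the tested members of each gene list that rose (orange, to the right) or fell (blue, to the left) in ESRRG OE against control, in percent, ordered by the median change, for lists with 8 or more tested members. The dashed lines are the shares over all 11254 genes, 20.1% that rose and 20.9% that fell, and the bars run from 72.7% rising members of the ATF4 list at the top to 71.8% falling members of ribosome biogenesis at the bottom.

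ATF4 and the amino acid response form the program that cells use when amino acids run short or the endoplasmic reticulum is stressed. The list held 24 rises and 1 fall among 33 tested genes (median 0.69). DDIT4, an inhibitor of mTOR complex 1, read 12.71, 12.94 and 12.61 in ESRRG OE samples and 10.06, 9.98 and 9.95 in control samples (6.76-fold). CHAC1, which breaks down glutathione, read 10.61, 10.42 and 10.25 against 7.75, 7.73 and 7.58 in control samples (6.68-fold). ASNS, or asparagine synthetase, read 12.14, 12.19 and 11.41 in ESRRG OE samples and 9.58, 9.52 and 9.53 in control samples. ESRRG OE replicate 3 was the lowest of its group in all of them.

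DDIT3, the transcription factor CHOP, and SLC38A2, a glutamine transporter, rose by 2.03 and 1.94, and ATF4 itself rose by 0.79. ATF5, a related factor, was the member that fell (7.95, 7.90 and 7.53 against 8.88, 8.95 and 9.21 in control samples). Among 18 cytosolic tRNA synthetases 9 rose and 2 fell (12 and 0 with one median), and GARS1, for glycine, rose by 0.81 and YARS1, for tyrosine, by 0.71. In the endoplasmic reticulum list 9 of 24 genes rose, among them the transcription factor gene XBP1 (0.79), and 3 fell (11 and 0 with one median). The chaperone gene HSPA5, or BiP, fell by 0.54 and did not pass with one median (-0.32, adjusted p = 0.0777).

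Amino acid and methyl metabolism moved both ways, with 8 rises and 13 falls among 28 genes of one-carbon, methionine and polyamine metabolism (11 rises and 3 falls with one median). CTH, which makes cysteine, read 9.59, 9.85 and 8.94 in ESRRG OE samples and 7.72, 7.71 and 7.72 in control samples. MAT2A, which makes the methyl donor S-adenosylmethionine, read 9.42, 9.29 and 9.69 against 11.19, 10.63 and 11.04 in control samples and was among the 15 largest falls. SRM (-0.76) and ODC1 (-0.73), of polyamine synthesis, also fell. In autophagy 10 of 26 genes rose and 1 fell (18 and 0 with one median), among the rises MAP1LC3B and GABARAPL1 (both 1.22), which coat autophagosomes.

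Immediate early genes and the feedback inhibitors of MAPK signaling, which are induced within minutes of growth factor stimulation, rose in 20 of 33 tested and fell in 3 (23 and 0 with one median). FOS read 10.22, 10.25 and 10.19 in ESRRG OE samples and 8.45, 8.36 and 8.34 in control samples (3.57-fold), and EGR1 read 11.13, 10.96 and 10.86 against 9.53, 9.46 and 9.44 (2.85-fold). DUSP4 (1.34) and DUSP6 (1.27), which dephosphorylate the ERK kinases, also rose. ERRFI1, a feedback inhibitor of the EGF receptor, was among the 500 genes of highest level and read 12.78, 12.83 and 12.68 against 11.25, 11.08 and 11.15 in control samples. Of 29 receptor tyrosine kinase genes and ligands 9 rose and 6 fell (12 and 0 with one median). These shares were 31% and 20.7%, against 20.1% and 20.9% over all genes tested, so the share that fell was near that over all genes. Among the rises were HBEGF, an EGF receptor ligand (1.25), EGFR itself (1.06) and GRB7, an adaptor (0.96). PDGFRA, AXL and EPHA1 were among the falls. The falls numbered 2 without control replicate 1, control replicate 3 or ESRRG OE replicate 3, and 3 without ESRRG OE replicate 2.

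Over the list of BMP and TGF-beta signaling 12 of 25 genes rose and 8 fell. BMP2, a ligand, read 9.52, 9.43 and 10.22 in ESRRG OE samples and 7.46, 7.58 and 7.68 in control samples (4.43-fold), with ESRRG OE replicate 3 the highest. ID1, a direct BMP target that blocks differentiation factors, read 10.57, 10.44 and 10.65 against 12.04, 11.94 and 11.97 in control samples, and ID3 read 9.63, 9.54 and 9.91 against 10.91, 11.03 and 11.04. The receptor gene BMPR2 fell by 1.20. JAG1, a Notch ligand, read 7.94, 7.88 and 8.02 in ESRRG OE and 9.35, 9.23 and 9.46 in control samples. In none of these genes did the groups overlap, which also held for 50.1% of all genes tested. The genes named were the largest changes of their lists, so this separation follows in part from the choice.

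Secreted and membrane proteases rose in 14 of 21 tested and fell in 1. TMPRSS2, a transmembrane serine protease, read 10.03, 9.996 and 9.85 in ESRRG OE samples and 7.46, 7.34 and 7.33 in control samples (5.98-fold), and the collagenase gene MMP1 read 9.30, 9.61 and 9.40 against 7.77, 7.96 and 7.72 (3.07-fold). Tight junction and adhesion genes rose in 12 and fell in 5 of 27 (18 and 1 with one median), with opposite changes of single claudins. CLDN2, a claudin of leaky epithelia, read 6.96, 6.94 and 7.08 in ESRRG OE samples, where it was detected on 1 array, and 8.60, 8.27 and 8.50 in control samples. Of the 7 tested keratins 4 fell and 0 rose (2 and 0 with one median). KRT8, of simple epithelia, read 11.97, 11.79 and 12.17 against 12.94, 12.63 and 12.81 in control samples.

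The falls were smaller than the rises. Among lists with 8 or more tested members the lowest medians belonged to ribosome biogenesis, splicing factors, cytosolic heat shock chaperones and DNA replication. Of 39 tested genes of ribosome biogenesis 28 fell and 0 rose (median -0.44). RRS1, which assembles the large subunit, read 8.95, 8.66 and 8.72 in ESRRG OE samples and 9.83, 9.80 and 9.73 in control samples, and NOP56, a core protein of the small nucleolar particles, read 11.62, 11.51 and 11.76 against 12.29, 12.65 and 12.34. With one median 9 fell and 2 rose, and the list's median lay 0.34 below that of all genes, against 0.43 below it with quantile normalization. Of 51 cytosolic ribosomal proteins 9 fell and 0 rose (3 and 0 with one median). The share that fell (17.6%) was below that over all genes (20.9%), and the median of the list was -0.04. Among noncoding RNAs, the small nucleolar RNA SNORA61 (9.29, 9.19 and 9.25 against 10.64, 10.75 and 10.67 in control samples) and DANCR (8.49, 8.62 and 8.60 against 9.79, 10.10 and 9.93) were among the 15 largest falls.

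Splicing factors fell in 20 and rose in 2 of 34 (5 and 3 with one median, where the list's median was 0.24 below that of all genes). U2AF1, which recognizes the end of the intron, read 9.39, 9.28 and 9.20 in ESRRG OE samples and 10.01, 10.57 and 10.33 in control samples, and SRSF2, a serine-arginine splicing factor, fell by 0.86. HNRNPDL counted as a rise by its brightest probe (0.46), but another of its probes fell by 0.65.

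Cytosolic heat shock chaperones fell in 16 and rose in 3 of 28 (7 and 5 with one median). HSPA1B, an inducible HSP70, read 9.13, 9.42 and 9.55 in ESRRG OE samples and 11.71, 11.43 and 11.35 in control samples, the only fall of more than 4-fold (log2 fold change -2.13, SE 0.12, adjusted p = 9.89e-09). HSPA8, the constitutive HSC70 and among the 500 genes of highest level, read 11.91, 11.74 and 12.14 against 13.25, 13.002 and 13.21 in control samples, and the co-chaperone gene DNAJA1 fell by 0.99. HSPA1A and HSPA1B are near-identical, and their probes may not fully separate them. The small heat shock protein gene HSPB8 rose (10.94, 10.76 and 10.78 against 8.95, 9.29 and 9.08 in control samples), and 1 to 2 members rose without each array in turn.

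DNA replication genes fell in 24 and rose in 2 of 42 (4 and 3 with one median, where the list's median was 0.18 below that of all genes). The number of rises was 0 without control replicate 1 or 3 or ESRRG OE replicate 1 or 2. FEN1, a nuclease of lagging strand synthesis, read 10.04, 9.95 and 10.13 in ESRRG OE samples and 11.18, 10.82 and 11.05 in control samples, and MCM7, a subunit of the replicative helicase, read 10.10, 10.01 and 10.02 against 11.01, 10.86 and 10.91. Genes of G2 and mitosis had no steady direction, since 14 fell and 4 rose of 46 but 4 fell and 17 rose with one median, and 9 fell and 3 rose without ESRRG OE replicate 2. Among 25 G1 regulators 10 fell and 6 rose (5 and 6 with one median). These shares were 40% and 24%, against 20.9% and 20.1% over all genes tested. CCND1, or cyclin D1, read 11.63, 11.32 and 11.37 against 12.68, 12.38 and 12.76 in control samples, and CDKN2B, the inhibitor p15, read 9.88, 9.85 and 9.89 against 8.73, 8.82 and 8.81.

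Interferon-stimulated genes fell in 12 and rose in 3 of 33 (6 and 7 with one median, 10 and 5 without ESRRG OE replicate 3), and the falls included the neighbouring antiviral membrane protein genes on chromosome 11. IFITM2 read 10.62, 10.71 and 10.63 in ESRRG OE samples and 11.66, 11.74 and 11.80 in control samples, IFITM3 fell by 0.94 and IFITM1 by 0.81. IFI27, another interferon-induced gene, rose (11.72, 11.81 and 11.53 against 10.59, 10.93 and 10.93 in control samples). Wnt components and targets fell in 11 and rose in 8 of 39 (4 and 10 with one median), and 7 fell without control replicate 1 or ESRRG OE replicate 2. The shares of the Wnt list were 28.2% that fell and 20.5% that rose, against 20.9% and 20.1% over all genes tested. The share that rose was thus near that over all genes. Among the falls was DKK1, a secreted Wnt inhibitor (-0.72), and among the rises were TLE2, FZD5 and TLE1.

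**Figure D4:**
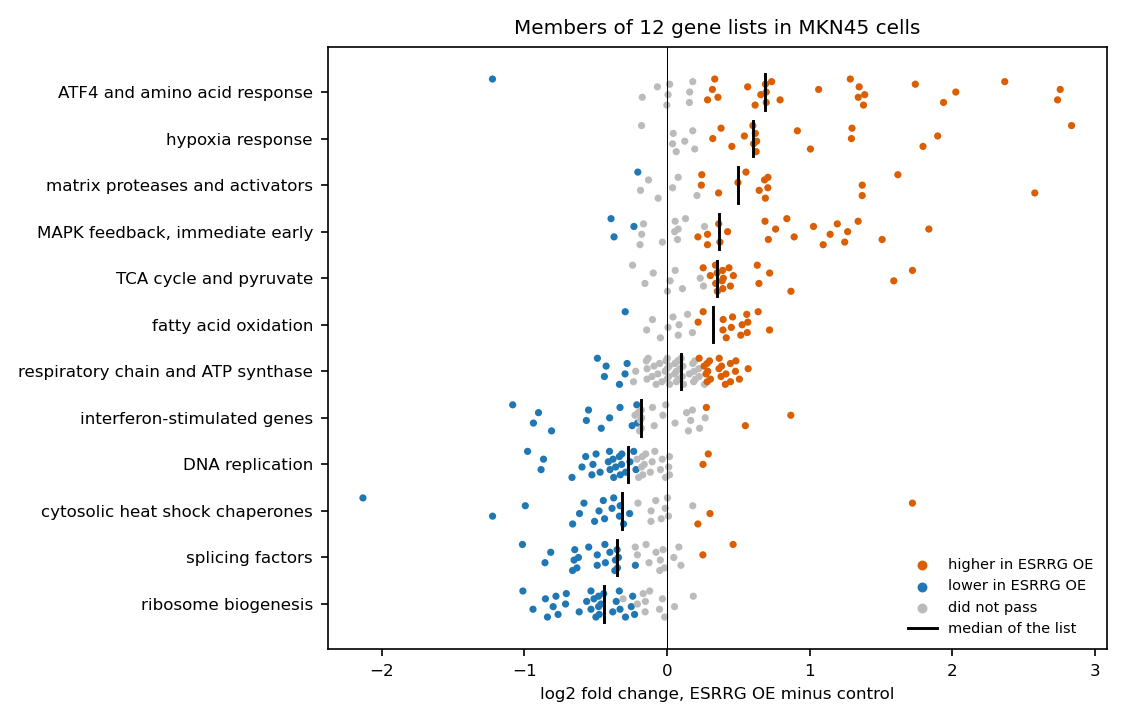
Log2 fold change (ESRRG OE minus control) of each tested member of 12 gene lists, with members that rose in orange, those that fell in blue and those that did not pass in grey, and the median of the list as a black line. Medians run from 0.69 for the ATF4 list to -0.44 for ribosome biogenesis, and HSPB8 at 1.72 stands apart from the falling heat shock chaperones.

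Other genes among the 15 largest falls were LIPG, an endothelial-type lipase (7.89, 7.92 and 7.82 in ESRRG OE samples against 9.57, 9.11 and 9.44 in control samples), ZSCAN31, a zinc finger gene (log2 fold change -1.44), FAM32A (-1.32), PCED1B (-1.24) and TMEM50B (-1.23). In lipid metabolism SCD, which desaturates fatty acids, rose (12.45, 12.31 and 12.31 against 11.07, 10.89 and 11.05 in control samples), while 8 of 22 genes of cholesterol synthesis and uptake fell and 3 rose (2 and 3 with one median). NPC1, the lysosomal cholesterol exporter, rose by 1.61. Among endoderm transcription factors CEBPB rose by 1.38 and KLF4 by 1.10, and CEBPA fell by 0.73. IL32, a proinflammatory cytokine, rose by 1.73.

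The contrast was also set against AGS cells, where it was fitted in the same way. A test of the difference between the lines (the line-by-vector interaction, fitted to all 12 arrays) passed for 1320 of the 11254 genes (11.7%), with 644 changes higher and 676 lower in MKN45 than in AGS cells. TFF1 changed by 5.50 in MKN45 and 5.32 in AGS cells, and the difference did not pass (0.18, SE 0.14, adjusted p = 0.43). HSD3B1 changed by 5.09 in MKN45 and by 3.48 in AGS cells (adjusted p of the difference 4.9e-07). The AGS control means of TFF1 (6.92) and HSD3B1 (6.97) lay at the detection limit, so their AGS changes are understated. CST4 rose more in MKN45 cells (5.87 against 4.51), and so did CST1 (1.45 against 0.31). The MKN45 control values of HSD3B1 and CST4 lay close to the detection limit too, so their MKN45 changes may also be understated. SLC40A1, the iron exporter ferroportin, read 9.80, 9.63 and 9.82 in ESRRG OE and 8.41, 8.36 and 8.34 in control MKN45 samples, a change of 1.38 against 0.26 in AGS cells.

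Smaller in MKN45 cells were the changes of IFI27 (0.87 against 3.52 in AGS), FGG (3.14 against 5.09) and S100P, a calcium-binding protein (1.08 against 2.85). For FGG the lines were compared by its brightest probe only, and a dimmer probe gave a larger change in MKN45 cells. LGALS4, an intestinal galectin, and REG1A, a secreted lectin, changed in opposite directions in the lines. LGALS4 changed by -0.45 in MKN45 and by 1.11 in AGS cells and did not pass in MKN45 with one median (-0.19, adjusted p = 0.225). REG1A read 10.39, 10.43 and 10.45 in ESRRG OE and 10.80, 10.77 and 10.90 in control MKN45 samples (-0.40, and -0.11 with an adjusted p of 0.496 with one median), against 1.08 in AGS cells. The number of genes whose change differed fell to 356 with one median and to 862 without AGS ESRRG OE replicate 2.

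**Figure D5:**
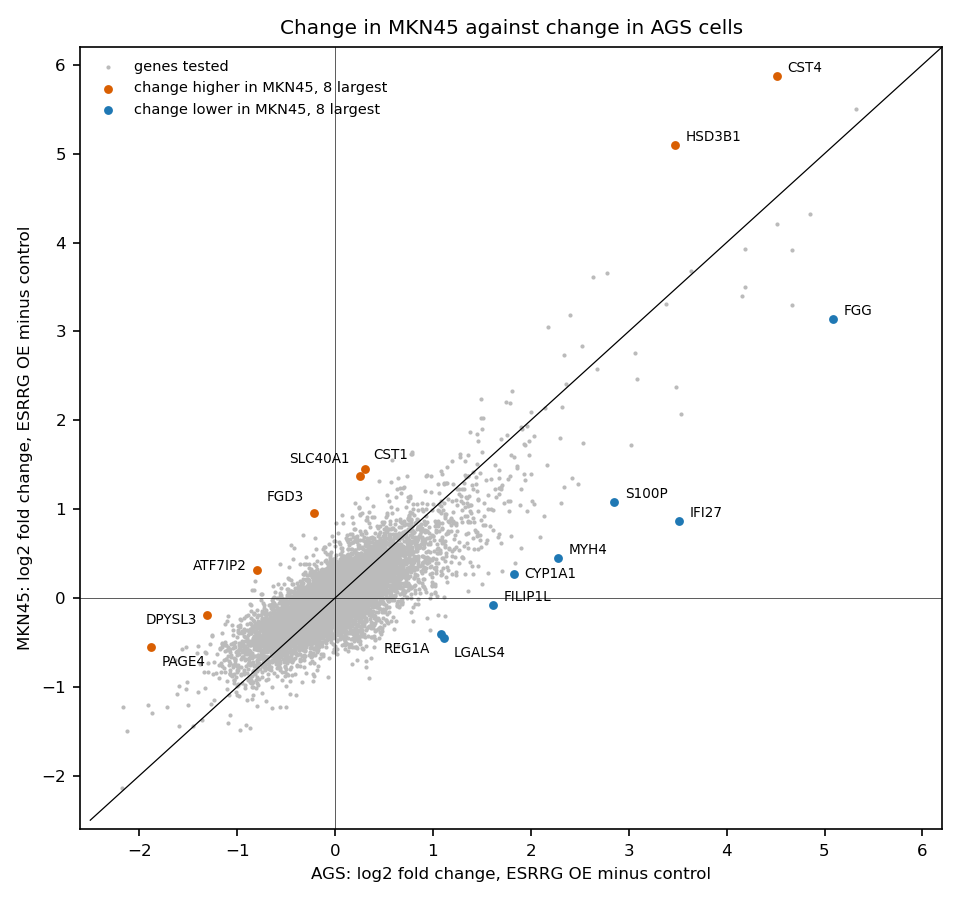
Log2 fold change (ESRRG OE minus control) in MKN45 cells (vertical axis) against that in AGS cells (horizontal axis) for the 11254 genes tested in MKN45. Coloured points are the 8 largest differences in each direction among genes past the interaction test, from HSD3B1 (MKN45 minus AGS 1.62) to IFI27 (-2.65), and the line marks equal change.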

How the data were processed

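RNA from MKN45 cells (3 ESRRG OE and 3 control samples) was labelled and hybridized to Illumina BeadChips by the authors, and the submitters' processing notes name GenomeStudio. The authors deposited 3 kinds of value for 47323 probes. The first is the probe intensity, deposited by the authors on a linear scale as exported from the scanner's software, without normalization. The second is a detection p-value, deposited beside each intensity, that sets the probe against negative control beads. The third is log2 values after quantile normalization of the 12 arrays in limma, as deposited by the authors, without background correction. Quantile normalization of the intensities, done again here, gave these values within 0.0005. Quantile normalization sets all arrays to 1 distribution, so a shift of most genes one way would be removed.

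The deposited log2 values were used. Probes with a detection p-value under 0.05 on at least 3 of the 6 arrays were tested (20143 probes), and a gene was represented by the tested probe of highest mean over 12 arrays (11254 genes, 3079 of them with several tested probes, 27 with a probe that changed the other way). Names came from the platform annotation: 30113 probes had 1 symbol, 8 several and 17202 none. Groups were compared with lmFit and eBayes (limma 3.58.1, R 4.3.3) and Benjamini-Hochberg adjustment, at 0.05. An exact permutation test of 3 against 3 cannot go below p = 0.1. Lower bounds of folds ("at least") set the mean of the brighter group against a floor, the lowest signal detected on each array or the probe's own signal where that was higher. The number of arrays limits the precision.

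Named genes are the ERR genes, the 15 largest rises and falls without overlap, the 8 largest detected in 1 group only, the 10 largest in each direction among the 500 highest genes, the 3 largest in each direction of 55 lists with any member needed to state a count, and the 8 largest interactions in each direction. The members of the comparison and the lists were chosen with earlier results of these data known. CST3, HIF1A, DDIT3, SLC38A2, DUSP6, IFITM1 and the neighbouring pairs were named after their values were seen. Promoters were read from RefSeq (GRCh38.p14). Alternatives were neqc background correction (offset 16), scaling to one median, normalization of the MKN45 arrays alone, no or a stricter detection filter (p under 0.01), 1 fit of all 12 arrays, a replicate block, a test with each gene's own spread, the random variance test of the methods, a spread trend, averaged probes and leaving out each array.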

Additional observations from a re-analysis of the deposited data

Results flagged for a closer look

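The change on ESRRG overexpression differed between MKN45 and AGS cells by the interaction test for the genes below, 8 in each direction. Higher in MKN45 were HSD3B1 (MKN45 change minus AGS change 1.62), CST4 (1.36), PAGE4 (1.33), FGD3, an exchange factor for CDC42 (1.17), CST1 (1.14), SLC40A1 (1.12), DPYSL3 (1.11) and ATF7IP2 (1.11). DPYSL3 was not called in MKN45 itself (8.21, 8.12 and 8.27 in ESRRG OE against 8.33, 8.41 and 8.44 in control samples), and ATF7IP2 rose by 0.31 in MKN45 but changed by -0.80 in AGS cells. PAGE4 was undetected on all MKN45 ESRRG OE arrays and reached at most 7.46 in an MKN45 control sample, so its fall in MKN45 is only bounded (at least 1.31-fold) and the difference from AGS cells is not read as a different response. For HSD3B1 the AGS control mean (6.97) lay at the detection limit and the MKN45 control values lay close to it. Its change may thus be understated in both lines, and its difference may be overstated or understated. Lower in MKN45 were IFI27 (-2.65), FGG (-1.95), MYH4 (-1.83), S100P (-1.78), FILIP1L (-1.69), LGALS4 (-1.56), CYP1A1 (-1.55) and REG1A (-1.48). FILIP1L and CYP1A1 did not pass in MKN45, where their groups overlapped. The FGG value is that of its brightest probe, and its MKN45 change depended on the probe.

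Signal was also present in probes without a gene symbol, which entered no count of genes. Of 4987 such probes tested, 1181 changed in MKN45 cells (23.7%), 480 of them higher and 701 lower in ESRRG OE, with log2 fold changes between -1.60 and 2.86. Over all 20143 probes tested, named or not, 6916 changed, so probes without a symbol changed less often than probes in general.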

How the results depend on the processing

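The counts of genes that rose and fell, 2264 and 2347, were moved by over 1.5 times by 2 alternatives: scaling to one median gave 3457 and 439, and the test with each gene's own spread gave 1418 falls. Genes whose change differed between the lines numbered 1320, against 854 with neqc, 356 with one median and 862 to 1416 without each array in turn. Probes past the p and fold thresholds of the study numbered 625, against 1654 with neqc and 1076 with one median. The median of each MKN45 array lay below its lowest detected signal, so scaling to one median aligned undetected signal. Leaving out each MKN45 array gave 1776 to 2253 rises and 1652 to 2307 falls. With one median the signs turned for CRELD2 (0.00955), CANX (8.48e-05), ANXA3 (0.0681), FOSL1 (0.0462) and CD320 (0.0466), none of them called there, and with averaged probes for HNRNPDL (-0.0933), not called there; the cause was not tested. Besides these reversals, of 300 named genes 51 were no longer called with one median, 43 with their own spread, 13 with neqc and 5 to 18 without 1 array.

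The replicate numbers did not pair the samples (correlations of same-numbered deviations 0.24, 0.00 and -0.02). With the replicate block 2322 genes rose, 2476 fell and 1429 differed between the lines, and TMPRSS4 alone among the named genes lost its call (-0.20, adjusted p = 0.0567). A slide block was not run, since the sources used here give no slide. Signal near background limits the folds of dim genes, which are understated.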
